A study of Mus musculus with 6 samples.

Results

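Glycine transporters and glycine receptors are described here by 6 genes: the transporter genes Slc6a9 and Slc6a5, the receptor α subunit genes Glra1, Glra2 and Glra3, and the receptor β subunit gene Glrb. They were found by gene symbol among the probesets to which the array's annotation gives 1 gene, and each had 1 such probeset, so that 6 of 17072 genes with such a probeset form the set. Hypothalamic RNA of female C57Bl/6J mice aged 21 weeks was hybridised to Affymetrix Mouse Gene 1.0 ST arrays, 3 for the control group (CON) and 3 for the CGP group. Mothers of the CGP mice received CGP 39551, a competitive NMDA receptor (NMDAR) antagonist, at 5 mg/kg by mouth during pregnancy and up to the end of weaning, and CON mice came from mothers without the drug. All mice had standard chow and water, and dosing of the mothers ended with weaning. RNA of 18 mice was pooled in each group, and the methods, written for the male arrays, describe 1 pool of RNA per group that was hybridised in triplicate. For the female arrays the labels give only pooled RNA and a replicate number. If they were made like those of the males, the 3 arrays of a group are technical repeats of 1 pool, and the p-values measure the variation among arrays and not among mice. No source used here gives the number of litters behind each pool. The published methods of the study were written for male offspring, which were fasted overnight, had taken part in behavioral tests and were euthanized with xylazine and ketamine, and ketamine is itself an NMDAR blocker. No source used here says whether the female mice of both groups were handled in the same way.

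Glycine is a fast inhibitory transmitter, used mainly by neurons of the spinal cord and brainstem, and it is also a co-agonist that the NMDAR needs beside glutamate. Glycine receptors are chloride channels of 5 subunits, built from α subunits, which can form channels alone, and the β subunit, which binds the scaffold protein gephyrin and holds the receptor at synapses. The transmitter is removed by GlyT1 (Slc6a9), found mostly on astrocytes, where it also keeps glycine low around NMDARs, and by GlyT2 (Slc6a5), found on the terminals of glycinergic neurons, which refills them. CGP 39551 competes with glutamate and not with glycine. The comparison asks whether blocking the NMDAR during development was followed by other transcript levels of these genes in the adult hypothalamus.

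Signals are the log2 RMA values the authors deposited, on which a difference of 1 is a 2-fold change. Of 18239 tested probesets (1 gene and a mean of at least 6), 0.28% passed an adjusted p of 0.05 in either direction (limma with Benjamini-Hochberg adjustment over all of them). The array of CGP replicate 1 stood apart from the others on the second principal component and lay among the CON arrays on the first, and results that rest on it are given with and without it. The treatment notes of the labels mention adrenal glands while the labelled source is hypothalamus. The hypothalamic peptide genes Hcrt, Pmch, Avp and Oxt lay at 10.94 to 12.56 on every array, and the other tested hypothalamic markers went down to Crh at 7.012 to 7.397. The 6 tested adrenal markers ran from Cyp11a1 (5.88 to 6.16) and Cyp11b1 (5.91 to 6.26), close to the filter, to Mrap (7.08 to 7.16). Agrp had no probeset with 1 gene. Of 13 hypothalamic markers, 12 were tested and 0 passed the adjusted p in limma.

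None of the 6 genes passed the test between CGP and CON. All 6 were tested, and 0 had an adjusted p under 0.05, where the share of all tested probesets was 0.28%. At an unadjusted p under 0.05 there were 2, Glra1 and Glra3, both lower in CGP, against 11.1% of all tested probesets in either direction and 5.83% lower, and the same linear model without moderated variances gave 0 of 6 at either threshold. The median difference of the 6 genes, CGP minus CON, was -0.026 on the log2 scale, where that of all tested probesets was -0.0031. For no member did the arrays of both groups lie fully apart, where 17.5% of all tested probesets did. The CGP mean was below the CON mean for 6 of 6 genes and for 9503 of the 18239 probesets, but the sign of Slc6a9, Slc6a5 and Glra2 turned when single arrays were left out, and that of Slc6a5 also with array weights. In bulk tissue, fewer cells of a type and less RNA per cell cannot be told apart.

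**Figure D1:**
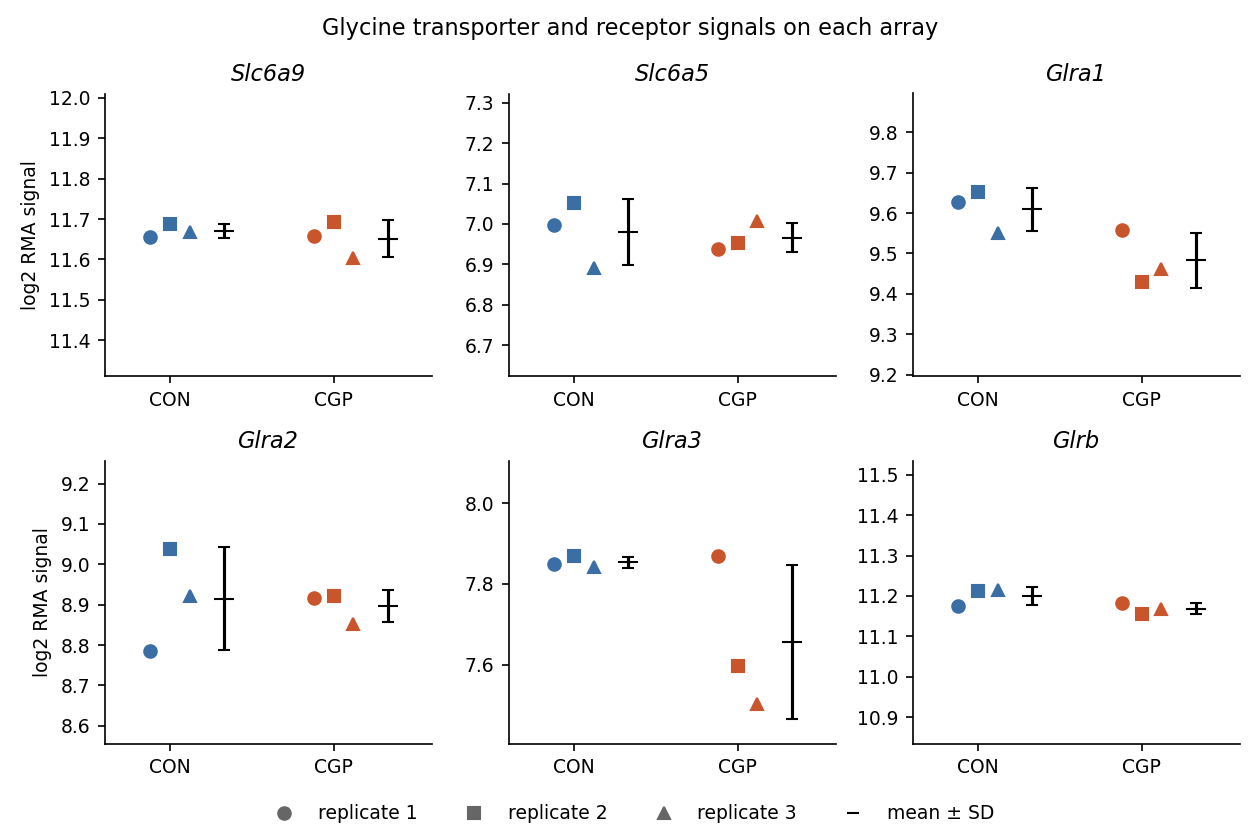
Log2 RMA signal of each gene (vertical axis, panels of equal span) on the 3 CON arrays (blue) and the 3 CGP arrays (orange), with marker shape for the replicate number and black bars for the mean and SD of 3 arrays. Glra3 shows CGP replicate 1 at 7.87 among the CON arrays and the other CGP arrays at 7.60 and 7.50, and the groups overlap in every panel.

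The transporter genes had nearly equal signals in both groups. Slc6a9, the gene of GlyT1, was at 11.66, 11.69 and 11.67 on the CON arrays and at 11.66, 11.69 and 11.60 on the CGP arrays. Both groups covered nearly the same signals, with CGP replicate 3 the lowest. Its difference was -0.020 (SE 0.038, limma adjusted p = 0.888), with a 95% interval of -0.11 to 0.068 (here and below for the single gene, not adjusted for the number of tests). A fall beyond 1.08-fold or a rise beyond 1.05-fold lies outside that interval. Of the 9 astrocyte markers set beside it, 0 passed the test in limma. Their mean signal was 10.96 to 10.98 on the CON arrays and 10.87 to 10.93 on the CGP arrays. By sign 8 of the 9 were lower in CGP and 1, Slc1a3 (0.019), was higher. For 4 of the 9 every CGP array lay below every CON array, as in 9.95% of all tested probesets. The part of astrocyte content in the signal of Slc6a9 was not tested.

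Slc6a5, the gene of GlyT2, was at 6.998, 7.051 and 6.891 in CON and at 6.94, 6.95 and 7.01 in CGP. The CGP arrays all lay inside the range of the CON arrays. The difference was -0.014 (SE 0.049, limma adjusted p = 0.939), with a 95% interval of -0.13 to 0.098, so that a fall beyond 1.09-fold or a rise beyond 1.07-fold lies outside it. This signal was the nearest of the 6 to the filter at 6, where background compresses changes, and the interval is one of array signal and not of transcript number. GlyT2 neurons have their cell bodies mostly in the hindbrain. Of 11 hindbrain and raphe markers, 6 were tested and 0 passed in limma, and their mean signal was 6.63 to 6.73 in CON and 6.64 to 6.80 in CGP. Over the 6 arrays the tested markers ran from Tph2 (5.98 to 6.46) and Hoxb4 (6.02 to 6.29), near the filter, to Hoxb3 (7.62 to 7.92), above it. The part of hindbrain tissue in the signal of Slc6a5 was not tested.

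The α subunit genes held the largest differences of the set. Glra3, whose α3 subunit is best known from pain pathways of the spinal dorsal horn, was at 7.85, 7.87 and 7.84 in CON and at 7.87, 7.60 and 7.50 in CGP. The CON arrays lay within 0.026 of each other, CGP replicate 1 lay at their upper end, and CGP replicates 2 and 3 lay below all of them. The group means were 7.85 ± 0.014 and 7.66 ± 0.19 (SD, n = 3 arrays each). The difference was -0.20 (SE 0.084, limma adjusted p = 0.445), with a 95% interval of -0.39 to -0.0036, which leaves a fall of up to 1.31-fold inside it. In absolute size it exceeded 98.1% of all tested probesets, while its SD within CGP exceeded 98.5% of them and its SD within CON 6.59%. Without CGP replicate 1 the difference was -0.30 and the adjusted p 0.0785, and without CGP replicate 3 the difference was -0.12 (adjusted p = 0.708 from limma). An exact two-sided permutation test over arrays gave p = 0.3, where 0.1 is the smallest that 3 arrays against 3 allow.

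Glra1, the α1 subunit of most adult spinal and brainstem receptors, was at 9.63, 9.65 and 9.55 in CON and at 9.56, 9.43 and 9.46 in CGP. The groups met at CON replicate 3 and CGP replicate 1 and were otherwise apart. The means were 9.61 ± 0.053 and 9.48 ± 0.067 (SD, n = 3 arrays each). This gave a difference of -0.13 (SE 0.048, limma adjusted p = 0.412) with a 95% interval of -0.24 to -0.017, and the bound on the lower side is a fall of 1.18-fold. The exact two-sided permutation test gave p = 0.2. Without CGP replicate 1 the difference was -0.16 and the adjusted p from limma 0.237. As with Glra3, the CGP arrays of replicates 2 and 3 were the lowest of the 6.

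Glra2, the α2 subunit that prevails in the immature nervous system, was at 8.79, 9.04 and 8.92 in CON and at 8.92, 8.92 and 8.85 in CGP. Here the spread was in the CON group, whose arrays covered 0.25 and enclosed all CGP arrays. The difference was -0.019 (SE 0.063, limma adjusted p = 0.937), with a 95% interval of -0.16 to 0.13. Falls beyond 1.12-fold and rises beyond 1.09-fold lie outside the interval.

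Glrb, the β subunit gene, was at 11.17, 11.21 and 11.21 in CON and at 11.18, 11.15 and 11.17 in CGP. CON replicate 1 lay among the CGP arrays, and the other CON arrays lay above them. The difference was -0.032 (SE 0.034, limma adjusted p = 0.767), with a 95% interval of -0.11 to 0.047. This gene had the smallest residual SD of the 6, at 0.019. The α4 subunit gene Glra4, taken with the synapse list, was at 6.55 to 6.75 in CON and 6.57 to 6.63 in CGP, and did not pass (limma adjusted p = 0.741).

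**Figure D2:**
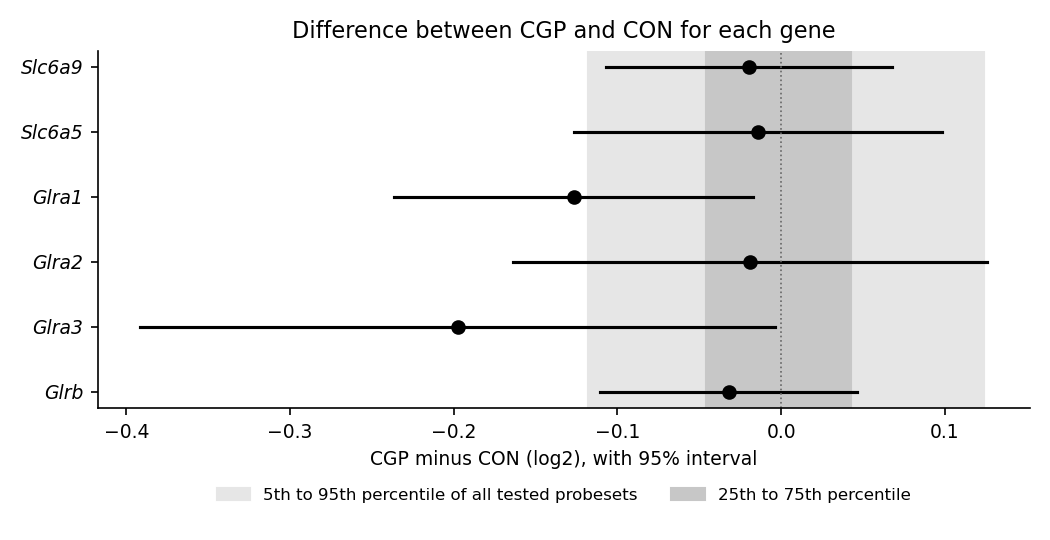
Difference between group means, CGP minus CON on the log2 scale (horizontal axis), for each gene (points) with the 95% interval from limma (lines). The shaded bands hold the middle of all tested probesets, and Glra1 and Glra3 are the points to the left of the wide band, which starts at -0.12.

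**Figure D3:**
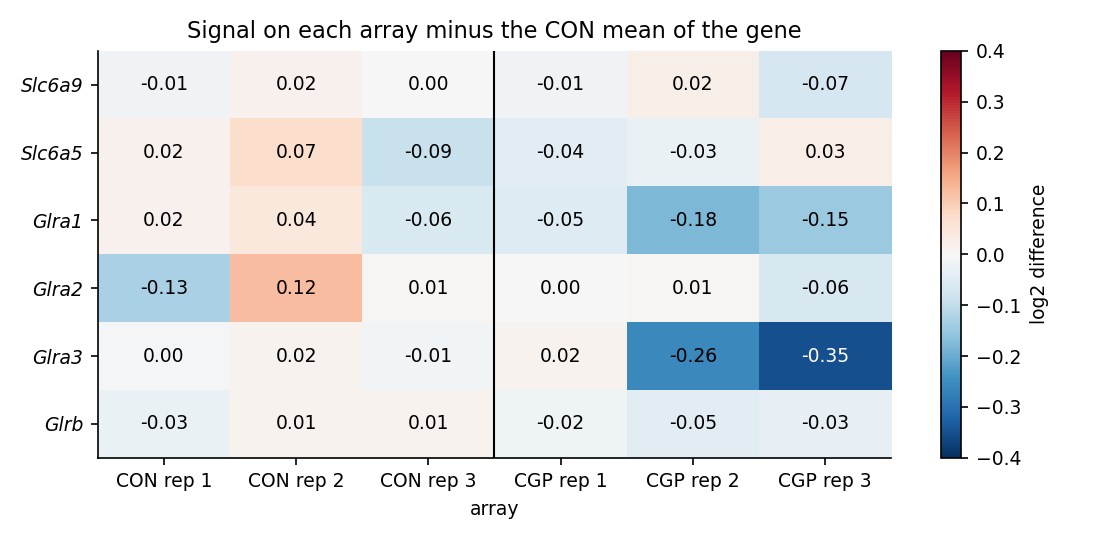
Signal of each gene (rows) on each of the 6 arrays (columns) minus the mean of its 3 CON arrays, in log2 units and colour. The most negative cells are those of Glra3 and Glra1 on CGP replicates 2 and 3, at -0.35 to -0.15, while CGP replicate 1 lies at 0.015 and -0.051 for these genes.

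The genes around them were read from lists chosen for role, but with earlier results of these data known. These held 55 genes in 5 lists, of which 51 were tested and the others were not analysed here. Of the 51, 0 passed higher in CGP and 2 passed lower, where 0.154% and 0.126% of all tested probesets did. Both that passed, Slc6a20a and Slc6a3, belong to the SLC6 family. The median difference of the 51 genes was -0.015, with 22 genes higher and 29 lower.

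Of the 8 tested genes of the inhibitory synapse and of chloride transport, 0 passed in limma, with a median difference of -0.019. The largest differences were those of Slc12a2, the chloride importer NKCC1, at -0.081 (adjusted p = 0.510) and of Slitrk3, a postsynaptic adhesion protein, at 0.080 (adjusted p = 0.497). Gphn, the gene of gephyrin, which anchors the β subunit, had means of 10.68 ± 0.061 for CON and 10.65 ± 0.014 for CGP (SD, n = 3 arrays each). Slc32a1, which loads glycine and GABA into vesicles, was at 9.82 ± 0.023 and 9.80 ± 0.036. The groups overlapped for Gphn and Slc32a1. They lay fully apart for Slc12a2, lower in CGP, and for Slitrk3, higher in CGP, as in 17.5% of all tested probesets in either direction.

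Of the 12 genes that make glycine and serine or break glycine down, 0 passed in limma. Psat1, the aminotransferase of serine synthesis, was at 10.22, 10.26 and 10.23 in CON and at 10.08, 10.12 and 9.996 in CGP. Every CGP array lay below every CON array, as in 9.95% of all tested probesets, but the difference of -0.17 did not pass (adjusted p = 0.230 from limma). Gnmt, which methylates glycine, differed by 0.13 (adjusted p = 0.459 from limma). The genes of the glycine cleavage enzymes Gldc (0.055), Amt (-0.026), Gcsh (-0.015) and Dld (-0.0094) differed by small amounts of either sign.

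Of the 12 tested carriers of glycine or small neutral amino acids, 1 passed. This was Slc6a20a, a proline carrier that also takes glycine, at 10.74, 10.65 and 10.74 in CON and at 10.42, 10.36 and 10.38 in CGP. All CGP arrays lay below all CON arrays, as in 9.95% of all tested probesets. It fell by 0.32 (SE 0.040, limma adjusted p = 0.0253), and passed in 7 of 16 alternative settings, in none of those with 1 array left out. Of 8 meninges and fibroblast genes, 4 passed lower in CGP and 0 higher (limma adjusted p under 0.05). The shares of all tested probesets were 0.126% lower and 0.154% higher. By sign 6 of the 8 were lower and 2 higher, and Col1a1 (-0.014), Col1a2 (0.0040) and Lum (0.020) differed little. The mean signal of the 8 was 8.31 to 8.34 in CON and 8.05 to 8.11 in CGP. Lum lay near the filter at 5.90 to 6.14. Choroid plexus genes went the other way, with 6 of 6 higher in CGP by sign. By the same test 2 passed higher, Ttr by 0.84 and Slc4a5 by 0.40 (limma adjusted p = 2.90e-04 and 0.0249), and 0 lower. The mean signal of these 6 was 8.47 to 8.48 in CON and 8.74 to 8.80 in CGP. The part of either tissue in the fall of Slc6a20a was not tested. Slc7a10, which exchanges glycine and D-serine on astrocytes and neurons, differed by 0.029 (adjusted p = 0.868 from limma).

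Of the 13 other tested SLC6 genes, the family of both glycine transporters, 1 passed and the median difference was -0.077. The dopamine transporter gene Slc6a3 was at 10.99, 10.97 and 11.02 in CON and at 10.57, 10.66 and 10.57 in CGP. It fell by 0.39 (SE 0.041, limma adjusted p = 0.0165) and passed in 8 of 16 alternative settings, of those with 1 array left out only without CGP replicate 2 (adjusted p = 0.0341, limma). Slc6a13 and Slc6a12, named after their values were seen, carry GABA and betaine and had differences of -0.41 (adjusted p = 0.0597) and -0.26 (adjusted p = 0.116 from limma). Both lay lower on every CGP array than on any CON array, as did 9.95% of all tested probesets. So did the mean signal of the meninges list given above, whose part in these differences was not tested. Of the 6 tested NMDAR subunit genes, 0 passed in limma, and the largest differences were those of Grin2d (0.13, adjusted p = 0.409) and Grin2c (0.12, adjusted p = 0.512). The subunit gene Grin1 had no probeset with 1 gene and was not tested.

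**Figure D4:**
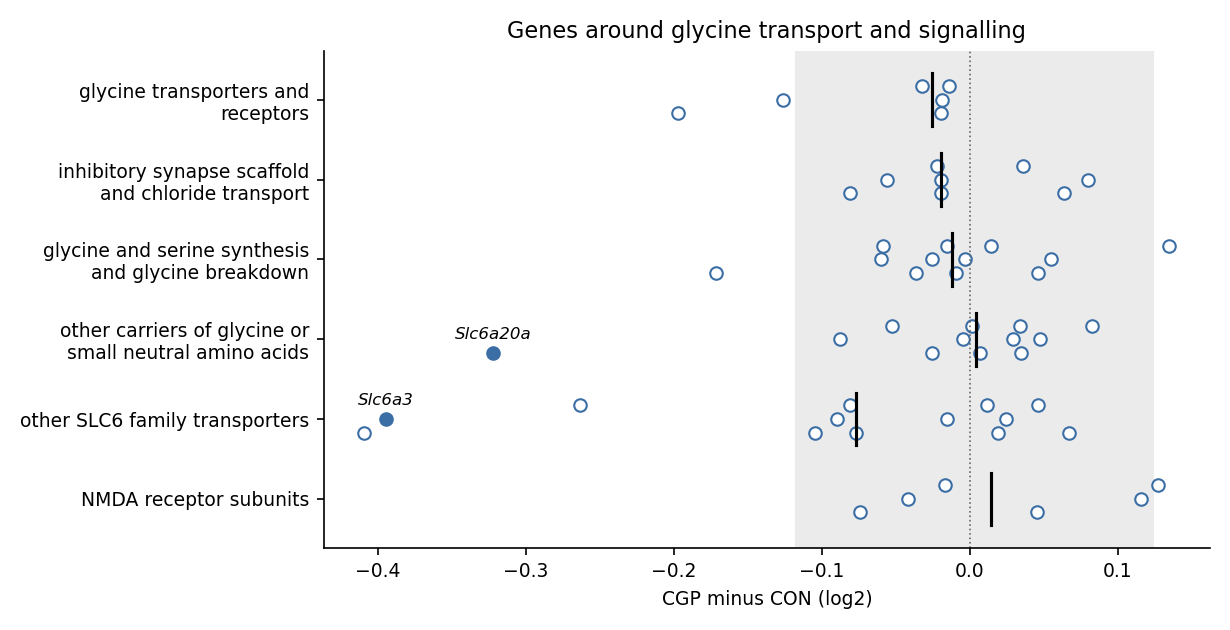
Difference CGP minus CON on the log2 scale (horizontal axis) of each tested gene, by list (rows), with filled points for genes past the adjusted p, black bars for list medians and shading for the 5th to 95th percentile of all tested probesets. Only Slc6a20a at -0.32 and Slc6a3 at -0.39 are filled, and Slc6a13 at -0.41 is the open point farthest to the left.

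The genes whose signals over the 6 arrays most resembled those of the set were sought among 15760 other tested genes, by the root mean square difference (RMSD) between values centred on each gene's own mean. For Glra3 this was Klhl4 (RMSD 0.045), at 7.87, 7.92 and 7.90 in CON and at 7.89, 7.52 and 7.54 in CGP. It had the same split within the CGP group, with replicate 1 at the level of CON. For Glra1 it was Ninj2 (RMSD 0.0088), with a difference of -0.12 (adjusted p = 0.440 from limma). For Slc6a9 it was Chid1 (0.0074), for Slc6a5 Ppl (0.014), for Glra2 Chchd4 (0.016) and for Glrb Smap1 (0.0061). The search ran over many genes and only 6 arrays, and these matches are descriptions of array signal with no test.

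**Figure D5:**
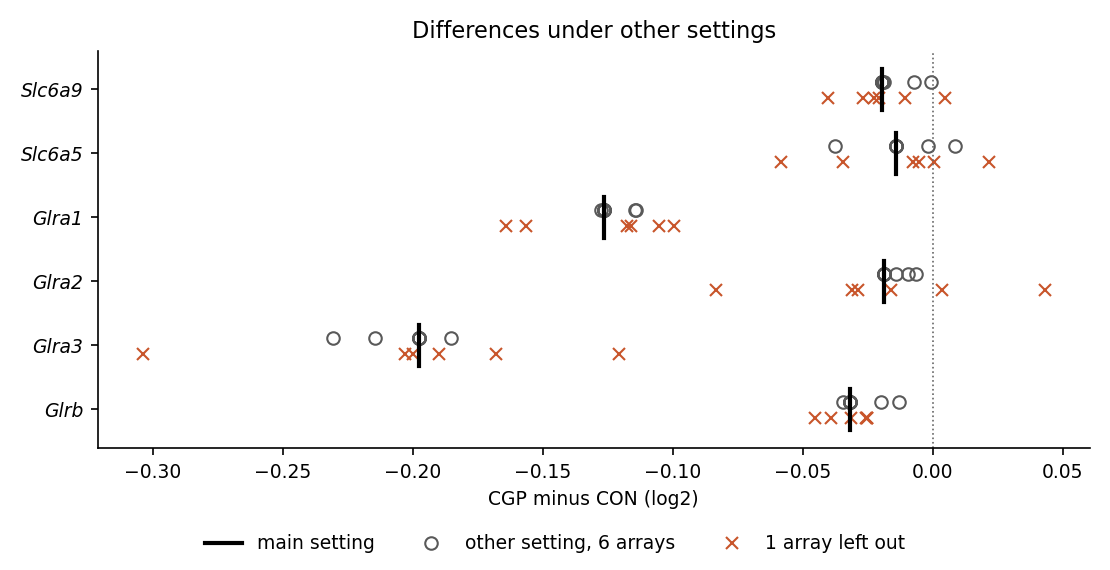
Difference CGP minus CON on the log2 scale (horizontal axis) of each gene in the main setting (black bars), in other settings with all 6 arrays (circles) and with 1 array left out (crosses). Glra1, Glra3 and Glrb stay below 0 throughout, and Glra3 spans -0.30 to -0.12 while the crosses of Slc6a9, Slc6a5 and Glra2 fall on both sides of 0.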

How the data were processed

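Total RNA of the hypothalamus, pooled from 18 mice in each group, was measured on 6 arrays. The authors deposited 1 table of log2 values with 28471 probesets, made with RMA (background correction, quantile normalization, median polish) and Partek per their processing notes, with versions and the probesets' build not given in the sources used here. No coordinates are reported. Values were used as deposited. The GEO platform annotation gave 1 gene for 18690 probesets, several for 1163 and none for 8618. Of the 18690, 18620 matched RefSeq genes of GRCm38.p6 by Entrez identifier, with 0 symbols changed. As in the published methods for the male arrays, only probesets with 1 gene were tested and low values were filtered, here a mean below 6 (451 probesets), which left 18239 for 16663 genes. A gene's probeset with the highest mean stood for it.

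The groups were compared by limma 3.58.1 in R 4.3.3 (lmFit, eBayes, all 6 arrays, no covariate), with Benjamini-Hochberg adjustment over all tested probesets and 95% intervals from the same fit. Fits were checked on simulated data. Array number limits the precision, and the files hold no detection p. Signals of different probesets were set beside the filter and, for tissue markers, beside each other, but are not read as transcript amounts. Genes of the set and the lists were chosen with earlier results of these data known. Named are all genes of the set, of each list those past the adjusted p or else the 2 with the largest difference, and for each gene the nearest in pattern. Slc6a12 and Slc6a13 were named after their values were seen, and other list genes for their role. The 16 alternatives covered the filter, probesets tested, variance model, array weights, centring, quantile normalization, a gene's probesets, the replicate block and each array left out. Proteins and promoters were not analysed here.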

Additional observations from a re-analysis of the deposited data

How the results depend on the processing

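In the 16 alternatives (15 for Slc6a5, which fell under the stricter filter of 7), no member passed the adjusted p, and Glra1, Glra3 and Glrb were lower in CGP in each. The lowest adjusted p was 0.0785, for Glra3 without CGP replicate 1. With array weights the difference of Slc6a5 turned to 0.0086. With 1 array left out, differences ranged from -0.040 to 0.0047 for Slc6a9, from -0.058 to 0.022 for Slc6a5 (0.00029 without CGP replicate 1), from -0.083 to 0.043 for Glra2 (0.0035 without CGP replicate 3), from -0.16 to -0.099 for Glra1 and from -0.30 to -0.12 for Glra3.

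Arrays were not paired by their replicate numbers. Deviations from the group means correlated at 0.078, -0.18 and 0.11 between arrays of the same number, which was the best match for 1 of 3 CON arrays. Under the replicate block, 0 members and 0 list genes passed, and over all probesets 2 passed higher and 4 lower. Of the list genes, 2 passed lower in CGP in the main setting. With all 28471 probesets tested 0 list genes passed lower, and by ordinary ANOVA 0. With a trended and robust eBayes 5 did, and with 1 array left out 0 to 1 (Slc6a3 without CGP replicate 2). Over all tested probesets, 28 passed higher and 23 lower. These became 44 and 37 with the filter at 7, 3 and 2 with all 28471 probesets, 113 and 136 with a trended and robust eBayes, 4 and 2 with ordinary ANOVA, and 2 to 5 and 3 to 8 with 1 array left out, and 38 passed lower with array weights. A left-out array leaves fewer samples and ANOVA lacks the moderated variance. The cause of the changed counts was not tested for any setting.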
